A study of Mus musculus with 25 samples.

Results

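Macrophages of the mouse line RAW 264.7 were exposed for 6 h to hypochlorous acid (HOCl) at 3.5 mM, the highest dose of the series, and compared with cells of the same line in medium with 0 mM HOCl. The comparison rests on 7 of the 25 arrays, which are all 3 arrays titled for 3.5 mM and all 4 titled for 0 mM, and it covers every probe set that is not a control, 45037 of 45101. Cells of both groups were grown in medium with fetal bovine serum to near confluence, with no other agent, so the groups differ by label only in the HOCl. RAW 264.7 is a continuous line of macrophage-like tumour cells, and the labels describe the replicates as biological without saying whether cultures were grown on separate days. The p-values measure the spread between such arrays. Transcripts were measured on Affymetrix Mouse 430 2.0 arrays, on which a probe set is a group of short oligonucleotides against 1 stretch of a transcript. The labels do not give how many cells survived this dose. The question was which kinds of transcript were lost and which were higher at the most toxic end of the dose range.

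Hypochlorous acid is made by neutrophils from hydrogen peroxide and chloride with the enzyme myeloperoxidase, and it oxidises thiols, methionines and amines of proteins. Cells answer sublethal oxidation through NRF2, a transcription factor that drives glutathione and thioredoxin genes, and answer damaged proteins through HSF1, which drives heat shock genes. The amount of an mRNA depends on both its synthesis and its decay, and mRNAs with short half-lives, such as those of many regulators, drop first when synthesis stops. Long genes need more time to be transcribed than short ones. The replication-dependent histone genes are short, lack introns and give mRNAs that end in a stem-loop in place of a poly(A) tail.

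At 3.5 mM, single genes of the histone, heat shock and growth arrest lists were far above their level at 0 mM. A set of genes that included Hipk2, Rbm39 and Hivep3 was far below its 0 mM level, each gene by its brightest probe set. The histone genes H3f3b and H3c7 rose by 4.51 and 4.27 on the log2 scale and the growth arrest gene Gadd45g by 3.54. The heat shock gene Hspa1b rose by 3.84, which is 14.3-fold. In the other direction, the kinase gene Hipk2 fell by 3.32 and the RNA-binding protein gene Rbm39 by 2.67, which is 6.34-fold lower. No fold is given for H3f3b, H3c7, Gadd45g or Hipk2, because on 1 side of the comparison their signal lay within -1.40 to 1.35, the range of the markers of 5 other cell types at 0 mM. Genes of the proteasome and of mitochondrial ribosomes were higher by small amounts. Of the NRF2 targets named here, Hmox1, Srxn1, Gclm and Slc7a11 were not called against 0 mM, and Txnrd1 was lower on 1 of its 3 probe sets. All 5 were lower than at 2.1 and 2.8 mM.

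The promoters of 5 of the genes that rose and of Hipk2, the gene that fell furthest, are printed first, because the upward set holds short genes whose control regions are well described. They come from RefSeq (GRCm38.p6) and run from 250 bases before the transcription start to 50 bases after it. Capitals mark matches on either strand to the TATA box (TATAAA), the CCAAT box (CCAAT), a heat shock element (GAANNTTC) and the octamer (ATGCAAAT). The cyclic AMP response element (TGACGTCA) was also searched and has no match in these windows. None of these motifs overlaps another in the sequences shown.
Hspa1b: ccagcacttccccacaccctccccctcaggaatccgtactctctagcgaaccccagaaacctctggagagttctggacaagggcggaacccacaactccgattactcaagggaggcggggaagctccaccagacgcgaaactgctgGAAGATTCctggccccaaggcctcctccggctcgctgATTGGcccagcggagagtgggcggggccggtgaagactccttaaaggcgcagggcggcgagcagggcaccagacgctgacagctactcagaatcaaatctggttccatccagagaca
H3f3b: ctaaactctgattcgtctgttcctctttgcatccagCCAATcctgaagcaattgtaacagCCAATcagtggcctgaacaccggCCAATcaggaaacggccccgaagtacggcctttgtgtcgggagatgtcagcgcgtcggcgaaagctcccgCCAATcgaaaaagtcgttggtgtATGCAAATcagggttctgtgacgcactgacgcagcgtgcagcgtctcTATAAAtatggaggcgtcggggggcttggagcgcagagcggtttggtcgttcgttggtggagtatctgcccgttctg
H3c4: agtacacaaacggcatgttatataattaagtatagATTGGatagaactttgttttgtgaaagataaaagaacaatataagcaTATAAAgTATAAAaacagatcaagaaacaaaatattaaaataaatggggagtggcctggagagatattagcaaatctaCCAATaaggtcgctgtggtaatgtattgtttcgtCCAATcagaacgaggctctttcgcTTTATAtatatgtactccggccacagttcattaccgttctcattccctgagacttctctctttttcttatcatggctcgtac
H2bc18: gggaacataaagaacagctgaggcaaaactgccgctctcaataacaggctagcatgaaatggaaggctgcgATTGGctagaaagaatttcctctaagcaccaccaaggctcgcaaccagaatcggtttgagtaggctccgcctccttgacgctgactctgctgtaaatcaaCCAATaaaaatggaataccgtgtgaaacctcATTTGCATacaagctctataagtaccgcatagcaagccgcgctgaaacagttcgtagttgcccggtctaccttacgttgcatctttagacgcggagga
Gadd45g: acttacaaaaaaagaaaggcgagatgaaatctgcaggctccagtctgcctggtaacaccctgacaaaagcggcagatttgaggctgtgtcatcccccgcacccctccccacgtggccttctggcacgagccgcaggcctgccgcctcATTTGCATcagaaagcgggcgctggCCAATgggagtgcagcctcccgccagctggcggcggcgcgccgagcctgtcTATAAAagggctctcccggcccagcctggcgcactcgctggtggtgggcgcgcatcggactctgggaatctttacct
Hipk2: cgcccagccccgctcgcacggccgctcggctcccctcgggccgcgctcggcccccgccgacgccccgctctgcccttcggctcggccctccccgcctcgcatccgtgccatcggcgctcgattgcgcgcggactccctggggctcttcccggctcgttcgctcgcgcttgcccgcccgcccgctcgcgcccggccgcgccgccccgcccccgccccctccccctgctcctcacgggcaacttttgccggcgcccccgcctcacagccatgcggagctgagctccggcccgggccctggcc
The windows lie at chr17:34959189-34959488 (minus strand) for Hspa1b, chr11:116024455-116024754 (minus) for H3f3b, chr13:23575513-23575812 (plus) for H3c4, chr3:96269450-96269749 (plus) for H2bc18, chr13:51846425-51846724 (plus) for Gadd45g and chr6:38876141-38876440 (minus) for Hipk2. Hspa1b has a heat shock element match whose first base is 104 bases before the start and a CCAAT box 67 bases before it. H3f3b holds 4 CCAAT boxes, an octamer and a TATA box that begins 27 bases before the start. H3c4 has TATA boxes at 168, 161 and 32 bases before the start, H2bc18 an octamer at 48, and Gadd45g a TATA box at 27. The Hipk2 window has none of the motifs and is 80.7% G and C, against 34.7% for H3c4. RefSeq lists another start for Hipk2, whose window also has no match.

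Of the 15 genes that rose most, 13 matched a promoter in the table, and of the 15 that fell most, 10 did, taking the first listed start of each gene. A CCAAT box was present in 11 of the 13 promoters of the upward set and in 4 of the 10 of the downward set. Among the 32851 promoters of this length that were searched, called all promoters here, 37.4% hold it. They take in every listed start of a gene and leave out 1 chromosome. The TATA box was found in 5 of 13 and 1 of 10, against 13.6% of all promoters, and the octamer in 4 of 13 and 1 of 10, against 1.74%. The heat shock element was in 1 promoter of each set, Hspa1b and Fosl2, and in 7.86% of all promoters, while the cyclic AMP response element was in none of either set and in 1.79% of all. The upward set includes 4 histone genes, 3 of them with a promoter here, so its promoters are not independent of each other. These matches are descriptions of sequence and were not tested.

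The cells kept the transcripts that define them. All 14 macrophage markers, among them Csf1r, Spi1, Cd68 and Lyz2, lay above the array median on average at both doses, and their mean was 5.50 to 5.64 on the 0 mM arrays and 5.56 to 5.68 on the 3.5 mM arrays. None of the 14 passed the test in either direction. Markers of 5 other cell types had means from -0.58 to 0.39 on the 7 arrays, and the lymphocyte marker Cd79b, at -0.97 to -0.68 against -0.74 to -0.40, was the only one called. Signals of Actb and Gapdh control probe sets at the 3' end differed from those at the 5' end by 0.35 (SD 0.163, n = 4) and 0.06 (SD 0.196) at 0 mM, and by 0.46 (SD 0.205, n = 3) and -0.06 (SD 0.00458) at 3.5 mM. The exact two-sided permutation p was 0.514 for Actb and 0.229 for Gapdh, and 3 against 4 arrays cannot go below 0.0571. Replicate 1 of 0 mM stood apart for Gapdh, at 0.36, while every other of the 7 arrays lay between -0.07 and -0.01. A technical measure did differ. Bacterial poly-A control transcripts, by their 5' probe sets, averaged 0.74 to 1.12 on the 0 mM arrays and 1.94 to 2.33 on the 3.5 mM arrays. This level coincides with the groups, so dose and spike level cannot be told apart within these 7 arrays. Values from a fit over all 25 arrays with the spike level as a term are given with the gene groups. That fit rests on the third replicates of 0.35 and 0.7 mM, the only arrays that share a dose with arrays of the other level.

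Across the array, 4199 probe sets (9.32%) differed between 3.5 and 0 mM at an adjusted p under 0.05 in limma. Of these, 1768 were higher (3.93%) and 2431 were lower (5.4%), and all 3 arrays of 3.5 mM lay beyond all 4 of 0 mM for 8850 probe sets (19.7%). Changes of at least 2-fold were mostly losses. They comprised 1005 probe sets that were lower (2.23%) and 148 that were higher (0.329%). Counted as genes, each by its brightest probe set with 1 symbol, 826 of 18193 were higher (4.54%) and 879 lower (4.83%), with 47 and 345 of them changed at least 2-fold. The median over all genes was 0.10 on the log2 scale. With the spike level as a term, 545 probe sets were higher and 2079 lower. A fit of these 7 arrays alone called 432 higher and 1387 lower. Without replicate 1 or 3 of 3.5 mM 963 and 993 probe sets were higher, and without replicate 2 of 3.5 mM 1607 were lower. Every array has a median of 0, so a loss or gain of RNA common to most transcripts cannot be seen, and fewer cells of a kind and less RNA per cell cannot be told apart in bulk RNA.

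**Figure D1:**
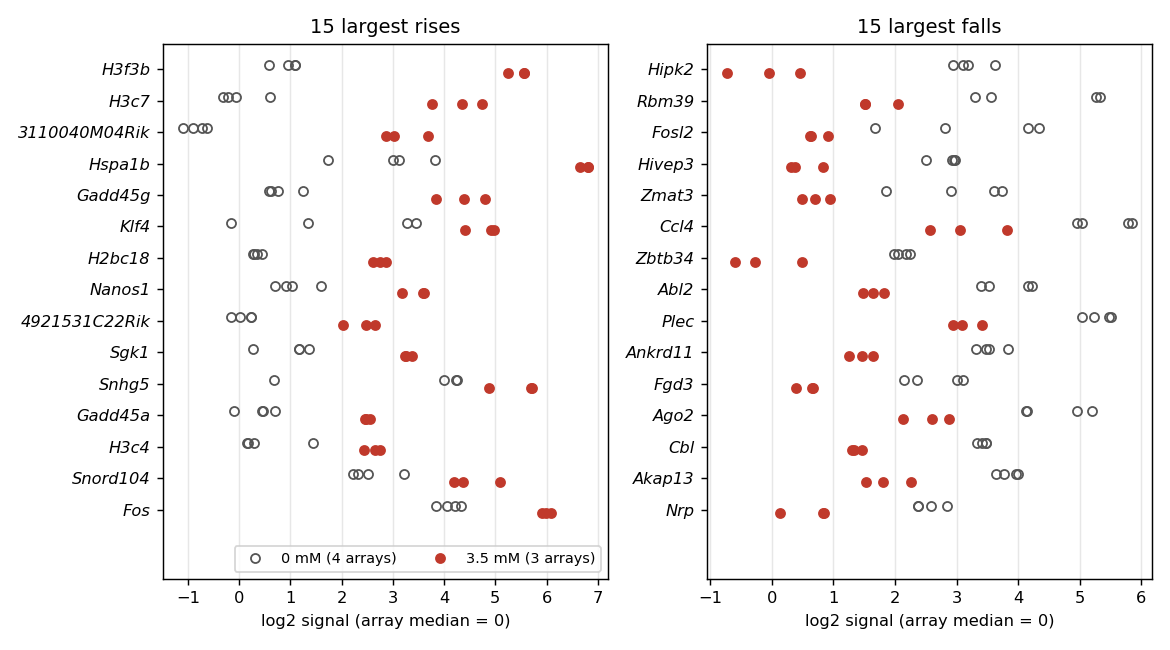
Log2 signal (x axis, array median 0) of the 15 genes that rose most and the 15 that fell most, in rows, on each of the 4 arrays of 0 mM (open circles) and the 3 arrays of 3.5 mM (filled). The groups do not overlap in any row because the genes were chosen so, and Hspa1b reaches 6.65 to 6.81 at 3.5 mM while Hipk2 drops to between -0.72 and 0.46.

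The histone genes held the largest rises. Of 28 measured histone genes 8 were called higher and none lower, with a median of 0.17, against 4.54% of all genes higher. The signal of H3f3b, which encodes the replication-independent histone variant H3.3, was 1.09, 1.10, 0.59 and 0.96 on the 0 mM arrays and 5.56, 5.55 and 5.24 on the 3.5 mM arrays. It rose by 4.51 (SE 0.379, adjusted p = 3.59e-07 in limma), and it is represented by a single probe set that carries only its symbol. H3c7, a replication-dependent H3 gene of the chromosome 13 cluster, had 0.60, -0.06, -0.21 and -0.31 at 0 mM and 3.77, 4.34 and 4.73 at 3.5 mM. Its level went from near the array median to well above it, a rise of 4.27 (SE 0.246, adjusted p = 3.48e-09). H2bc18 rose by 2.40 (SE 0.166), from 0.27 to 0.44 at 0 mM to 2.61 to 2.87 at 3.5 mM. H3c4 had 1.44 on 1 array of 0 mM and 0.16 to 0.30 on the others, against 2.44 to 2.75 at 3.5 mM. H3c11 and the linker histone gene H1f4 rose by 1.09 and 1.06, and H2aw and H2bc22 completed the 8, with 1.30 and 0.89. Other histone genes did not follow them. H2az1 at 0.32 (SE 0.252), H1f2 at 0.04 (SE 0.445) and Macroh2a1 at -0.11 (SE 0.145) missed the threshold, and H3f3a, the gene of the same H3.3 protein, stood at -0.27 (SE 0.149). The count of 8 was 7 with the spike level as a term and 7 or 8 with any 1 array left out.

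Gadd45 genes encode small proteins that bind cell cycle and stress kinases and are induced by growth arrest and DNA damage. All 3 family members rose, and the unrelated Gadd45gip1, listed with them, was not called. Gadd45g had 1.25, 0.63, 0.58 and 0.76 at 0 mM and 3.85, 4.39 and 4.80 at 3.5 mM, a rise of 3.54 (SE 0.515, adjusted p = 0.000159 in limma). Gadd45a was at -0.10 to 0.71 against 2.45 to 2.56, with a rise of 2.12 (SE 0.424, adjusted p = 0.00305). Gadd45b was at 1.10 to 2.05 against 3.23 to 3.69, with a rise of 1.67 (SE 0.328). The highest dose was not the peak of Gadd45b, whose mean was 4.98 at 2.8 mM and 3.41 at 3.5 mM. All 3 calls held with any 1 array left out, and 1 of them held with the spike level as a term, where Gadd45a stood at 1.06 (adjusted p = 0.281).

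Of 19 measured heat shock genes 2 were higher and 1 lower, with a median of 0.17, against 4.54% and 4.83% of all genes. Hspa1b, the inducible HSP70 chaperone gene, was at 3.83, 3.12, 1.73 and 3.00 on the 0 mM arrays and 6.81, 6.81 and 6.65 on the 3.5 mM arrays. The treated arrays were high and alike, and the rise was 3.84 (SE 0.581, adjusted p = 0.000236 in limma). Its other probe sets gave 3.98 and 4.11. Hsp90aa1, the inducible HSP90 gene, rose by 0.83 (SE 0.188), from 5.97 to 6.84 at 0 mM to 6.81 to 7.48. Bag3, a co-chaperone of HSP70 and itself an HSF1 target, fell by 0.72 (SE 0.208). Dnajb1, an HSP40 co-chaperone gene, stood at 0.12 (SE 0.251) and Hspa1a at 1.28 (SE 0.508, adjusted p = 0.12). Hspa8, the constitutive HSP70 gene, had 3 bright probe sets between 0.09 and 0.26, none called, and a dimmer one that rose by 2.43 (SE 0.308). Only Hspa1b of these was called with the spike level as a term, where Hsp90aa1 stood at 0.34 (adjusted p = 0.438) and Bag3 at -0.27 (adjusted p = 0.602). The Hsp90aa1 call was also lost without replicate 1 of 3.5 mM, and the Bag3 call without replicate 1 or 2 of 3.5 mM or 2 or 4 of 0 mM.

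Among immediate early genes, whose transcription starts within minutes of a stimulus, Fos and Klf4 rose while Fosl2, Jun and Junb fell, and the other 23 of 28 were not called. Of all genes 4.54% were higher and 4.83% lower. Fos went from 3.84 to 4.32 at 0 mM to 5.91 to 6.09 at 3.5 mM, a rise of 1.89 (SE 0.541, adjusted p = 0.0316 in limma). That call was lost whenever any 1 of the 7 arrays was left out, with adjusted p from 0.0506 to 0.0879. Klf4 varied widely at 0 mM, with -0.16, 3.45, 1.34 and 3.27, and lay at 4.40, 4.91 and 4.97 at 3.5 mM. Its rise of 2.79 (SE 0.697) was lost without replicate 2 or 3 of 3.5 mM, at adjusted p of 0.0512 and 0.0551. Fosl2, a Fos relative, fell by 2.52 (SE 0.441), from 1.67 to 4.34 at 0 mM to 0.62 to 0.92, and Jun fell by 1.02 (SE 0.313), from 4.01 to 5.64 to 3.46 to 4.23. The Jun call was lost without any 1 array of 3.5 mM or without replicate 2 or 4 of 0 mM, with adjusted p from 0.0509 to 0.17, and the Junb call without replicate 1 or 2 of 3.5 mM or 2 or 4 of 0 mM. Fos, Jun and Junb were also not called with the replicate block. With the spike level as a term Fosl2 was the only 1 of these 5 genes called, and the adjusted p was 0.282 for Fos, 0.101 for Klf4 and 0.241 for Jun. In the limma fit of the 7 arrays alone Fosl2 (adjusted p = 0.0661), Klf4, Jun and Junb were not called. Fosl2 has 2 probe sets, and the dimmer one stood at 0.04 (SE 0.177). Egr1, at 3.53 to 6.60 on the 0 mM arrays and 5.51 to 5.84 on the 3.5 mM arrays, overlapped between the groups. The mean of the list was split at 0 mM, at 3.59 and 3.53 on replicates 2 and 4 and 2.24 and 2.45 on replicates 1 and 3. On the 3.5 mM arrays it was 2.72 to 2.91.

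Several of the remaining large rises were noncoding or little described transcripts from short genes. The RIKEN gene 3110040M04Rik rose by 4.03 (SE 0.437), from -1.09 to -0.63 at 0 mM to 2.87 to 3.68, and 4921531C22Rik by 2.31 (SE 0.169). Snord104, a small nucleolar RNA gene, rose by 1.98 (SE 0.263), from 2.23 to 3.22 to 4.20 to 5.10. Snhg5, a host gene of such RNAs, had 0.69 on 1 array of 0 mM and 3.99 to 4.26 on the others, against 4.87, 5.71 and 5.70 at 3.5 mM. Its rise of 2.13 (SE 0.598) was lost without replicate 2 (adjusted p = 0.0916) or 3 (adjusted p = 0.0941) of 3.5 mM, and with the spike level as a term (adjusted p = 0.157). Among protein-coding genes, Nanos1, a translational repressor gene, rose by 2.39 (SE 0.259) and Sgk1, which encodes a kinase induced by glucocorticoids and serum, by 2.30 (SE 0.44). With the spike level as a term Sgk1 stood at 0.85 (adjusted p = 0.339).

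Among large sets of housekeeping genes, some held more small rises than the 4.54% of all genes. The proteasome, the complex that degrades ubiquitin-tagged proteins, had 15 of 31 measured subunits higher and none lower, with all 31 above 0 and a median of 0.38. Psma7 was at 5.07 to 5.34 at 0 mM and at 6.18, 6.06 and 5.74 at 3.5 mM, a rise of 0.78 (SE 0.131), and Psma2 rose by 0.56 (SE 0.0998). Of 76 measured mitochondrial ribosomal protein genes 23 were higher and none lower, with 75 above 0 and a median of 0.42. Mrps33, for example, went from 4.04 to 4.54 at 0 mM to 4.83 to 5.02, a rise of 0.66 (SE 0.114). Oxidative phosphorylation had 8 of 36 higher, led by Uqcrc2, Ndufs4 and Ndufa9 at 0.66, 0.61 and 0.76. The only member called lower was Cox7c, at -1.19 (SE 0.28), on a probe set near the array median. The tricarboxylic acid cycle and fatty acid oxidation had 6 of 28 higher and none lower, with Pdhb at 0.61 (SE 0.106) and Echs1 at 0.83 (SE 0.183). Cytosolic ribosomal proteins had 2 of 49 higher, below the share of all genes, and translation factors 4 of 31 and tRNA synthetases 2 of 18, with none lower in any of them and none higher with the spike level as a term.

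These housekeeping counts moved with the processing. With the spike level as a term they were 0 for the proteasome, 1 for mitochondrial ribosomes, 1 for oxidative phosphorylation and 1 for the tricarboxylic acid list, and spike level moves with the groups as given above. In the fit of the 7 arrays alone these counts were, in the same order, 2, 8, 2 and 1. Without replicate 1 of 3.5 mM the first 2 counts were 5 and 8, without replicate 2 they were 10 and 13, and quantile normalization gave 5 and 18. Over the 7 arrays left out in turn they lay between 5 and 16 and between 8 and 25, oxidative phosphorylation lay between 5 (without replicate 2 of 3.5 mM) and 12, and the tricarboxylic acid list had 3 without replicate 2 or 3 of 3.5 mM. The proteasome count was also 9 without replicate 3 of 3.5 mM or 4 of 0 mM, and the mitochondrial ribosome count 14 without replicate 2 of 0 mM. Their medians stayed above 0 under quantile normalization, at 0.23 and 0.34.

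**Figure D2:**
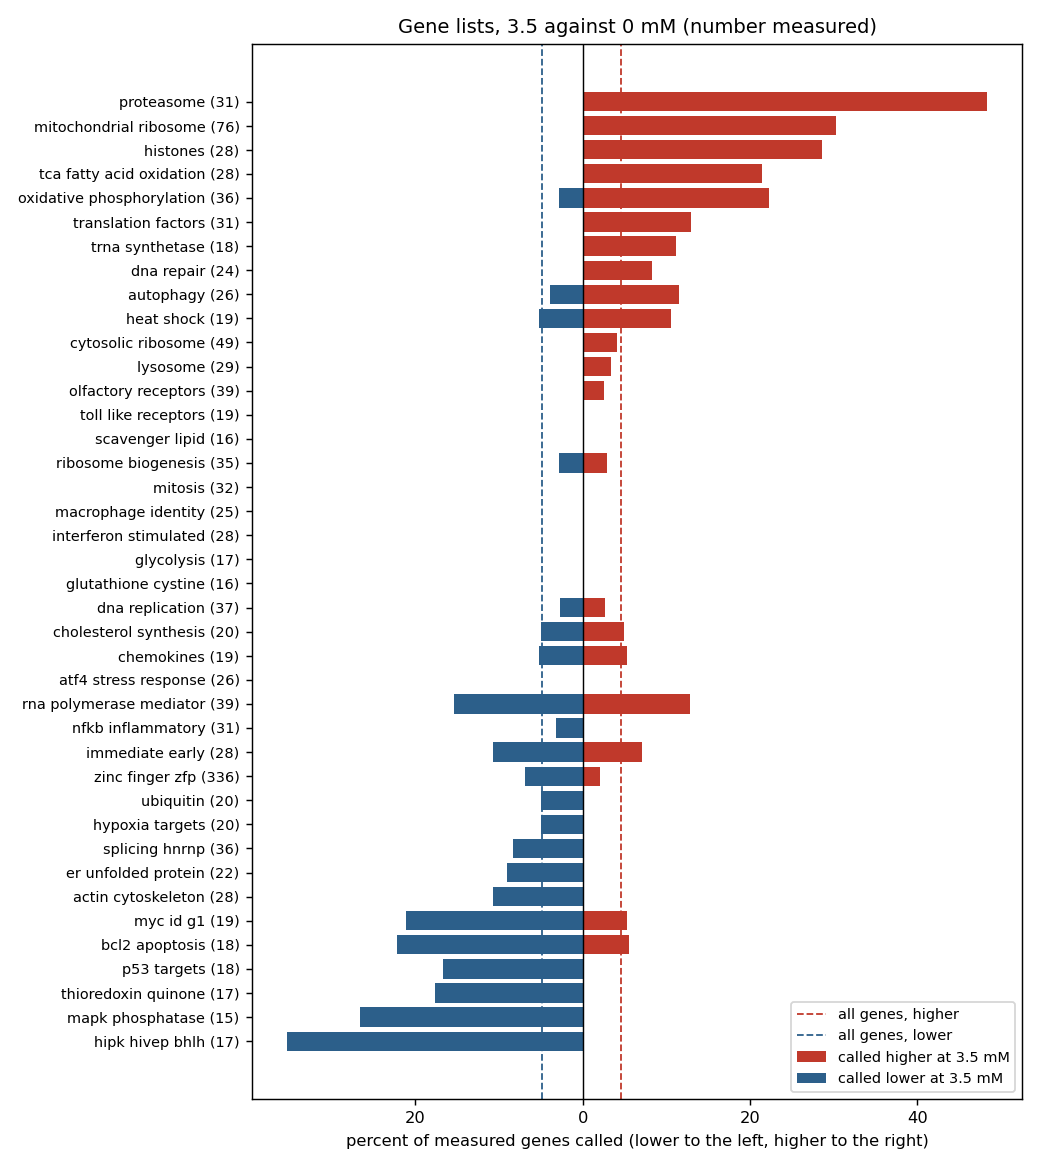
Percent of the measured genes of each list (rows, number measured in brackets) called higher (right) or lower (left) at 3.5 against 0 mM, for lists with at least 15 measured genes. Dashed lines mark the 4.54% and 4.83% of all genes, and the proteasome with 15 of 31 and the Hipk, Hivep and clock gene list with 6 of 17 lie farthest out.

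The largest fall was that of Hipk2. Hipk2 encodes a nuclear kinase that acts on p53 and on transcriptional corepressors. Its signal was 3.62, 3.11, 3.19 and 2.95 at 0 mM and 0.46, -0.72 and -0.04 at 3.5 mM, so that a transcript well above the array median ended near it. The fall was 3.32 on the log2 scale (SE 0.253, adjusted p = 8.57e-08 in limma). Hivep3, a gene of large zinc finger proteins that bind enhancers, had 2.97, 2.96, 2.93 and 2.50 against 0.83, 0.32 and 0.38, and fell by 2.33 (SE 0.354). Only this 1 of its 5 probe sets was called, and the differences of the others lay between -0.28 and 0.19. Hipk3 and Hivep1 fell by 1.02 (SE 0.266) and 1.49 (SE 0.3). The Hipk3 call was lost without replicate 2 (adjusted p = 0.0718) or 3 (adjusted p = 0.0916) of 3.5 mM and with the spike level as a term. On its probe set of largest variance Hipk3 stood at -0.44 (adjusted p = 0.371). In all, 6 of 17 genes of the list that joins Hipk, Hivep, Hes and clock regulators were lower and none higher. Their median was -0.64, and of all genes 4.83% were lower. The count of 6 was 3 with the spike level as a term, and 4 without replicate 1 or 2 of 3.5 mM or replicate 2 of 0 mM.

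Rbm39, a splicing factor related to U2AF, had 3.30, 5.33, 3.56 and 5.26 on the 0 mM arrays and 2.05, 1.52 and 1.52 on the 3.5 mM arrays. The 0 mM arrays were split in level, with replicates 2 and 4 the higher, and all 4 were above the treated ones. The fall was 2.67 (SE 0.388, adjusted p = 0.000161 in limma). Ago2, the slicer of RNA interference, fell by 2.07 (SE 0.232), from 4.12 to 5.20 to 2.13 to 2.88. The chromatin cofactor gene Ankrd11 fell by 2.08 (SE 0.145), from 3.31 to 3.83 to 1.26 to 1.64, and the zinc finger gene Zbtb34 by 2.24 (SE 0.297). Of 336 measured genes named Zfp and a number, 23 were lower and 7 higher, with a median of 0.04, against 4.83% and 4.54% of all genes. Zfp871 fell by 1.71 (SE 0.231). Without replicate 2 of 3.5 mM 12 were lower, and with the spike level as a term 13 were lower and none higher.

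Signalling and cytoskeletal genes made up much of the rest of the largest falls. Abl2, a tyrosine kinase gene, fell by 2.17 (SE 0.224), from 3.40 to 4.23 at 0 mM to 1.49 to 1.82. Cbl, which encodes a ubiquitin ligase that ends receptor signalling, was tight in both groups, at 3.34 to 3.48 and 1.31 to 1.46, and fell by 2.06 (SE 0.163, adjusted p = 1.39e-07 in limma). Plec, the gene of the giant cytoskeletal linker plectin, fell by 2.16 (SE 0.218), from 5.04 to 5.50 to 2.94 to 3.42. Akap13 and Fgd3 fell by 1.98 (SE 0.182) and 2.08 (SE 0.292). In the actin list 3 of 28 were lower and none higher, against 4.83% and 4.54% of all genes. The 3 were Myh9, Tln1 and Zyx, at -0.93, -0.93 and -1.19. The Tln1 call was lost on leaving out replicate 1 or 2 of either dose and the Zyx call without those or replicate 4 of 0 mM, and with the spike level as a term 1 member was lower. On the probe set of largest variance Myh9 stood at -0.11 (adjusted p = 0.936). Ccl4, a chemokine gene, fell by 2.26 (SE 0.686), a call that was lost on leaving out any of 6 of the 7 arrays, with adjusted p between 0.0524 and 0.137. Zmat3, a p53 target, fell by 2.32 (SE 0.379), and Nrp by 1.94 (SE 0.164).

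Feedback inhibitors of MAP kinase signalling were lower in 4 of 15 cases and higher in none, against 4.83% and 4.54% of all genes. Their median was -0.39. Spred2 was at 4.06 to 4.32 at 0 mM and 2.33 to 2.69 at 3.5 mM and fell by 1.68 (SE 0.171), and Dusp16, Dusp4 and Spred1 fell by 1.19, 0.96 and 0.73. Dusp1, an immediate early phosphatase gene, ranged from 1.16 to 4.08 on the 0 mM arrays and stood at 0.02 (SE 0.605). This count was 4 with the spike level as a term, and 3 without replicate 1 of 3.5 mM and 4 without any other 1 of the 7 arrays. Among genes of the first gap phase of the cell cycle, Cdk6, Id1, Id3 and Max fell and Id2 rose, in 19 measured. Cdk6, a kinase that starts the cycle, went from 4.04 to 4.36 to 2.53 to 2.83. Id3, an inhibitor of helix-loop-helix factors, went from 2.37 to 4.11 to 1.44 to 1.93, while its relative Id2 went from 2.85 to 4.41 up to 4.90 to 5.23. The Id2 call (adjusted p = 0.0469) was lost on leaving out any 1 array of 3.5 mM or 0 mM replicate 1, 3 or 4, and without replicate 2 of 3.5 mM 2 genes of the list were lower. In the fit with the spike level 1 was lower and none higher, with Id2 at 0.62 (adjusted p = 0.548), Id1 at -1.66 (adjusted p = 0.0787) and Id3 at -1.29 (adjusted p = 0.183). The Id1 call was lost without any of 5 of the 7 arrays, replicates 1 and 2 of 3.5 mM and 1, 2 and 4 of 0 mM.

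Genes of cell death were also mostly lower where they were called. Of 18 measured members of the Bcl2 and caspase list 4 were lower and 1 higher, against 4.83% and 4.54% of all genes. Bbc3, which encodes the death inducer PUMA, fell by 1.61 (SE 0.422), from 2.45 to 4.23 to 0.78 to 2.70. Cflar, a caspase 8 inhibitor gene, fell by 1.44 (SE 0.312), and Xiap and Mcl1, which encode survival proteins, by 0.97 (SE 0.235) and 0.53 (SE 0.161). Casp9 rose by 0.32 (SE 0.0892). The called losses included an inducer of death and inhibitors of it, but the Bbc3 and Mcl1 calls depended on the fit. Both were lost with the spike level as a term (adjusted p = 0.361 and 0.152 in limma) and with the replicate block. They were also lost in the fit of the 7 arrays alone (adjusted p = 0.189 and 0.14). The Bbc3 call was lost without replicate 2 or 4 of 0 mM or 1 of 3.5 mM. The Mcl1 call was lost without any of those or without replicate 2 or 3 of 3.5 mM. With the probe set of largest variance, and also in the fit of the 7 arrays alone, the list had 1 lower and none higher. On the probe set of largest variance Cflar, Xiap, Mcl1 and Casp9 stood at -0.53, 0.06, -0.42 and -0.10, none called. The p53 list had 3 of 18 lower and none higher, Zmat3, Bbc3 and Mdm2, the last at -0.97 (SE 0.299), and Cdkn1a stood at -0.66 (SE 0.265, adjusted p = 0.125). Without 0 mM replicate 2 or 4 the p53 count was 1, and on leaving out any 1 array of 3.5 mM, or 0 mM replicate 2 or 4, the Bcl2 list had 2 lower and, in the first case, none higher. The p53 list had 1 lower and the Bcl2 list none higher with the spike level as a term. The mean of the p53 list was split at 0 mM, at 3.15 and 3.07 on replicates 2 and 4 and 2.43 and 2.12 on replicates 1 and 3. On the 3.5 mM arrays it was 2.16 to 2.40, level with the lower ones. The Bcl2 list was split likewise, at 3.68 and 3.54 against 2.96 and 3.05, with 2.91 to 3.19 at 3.5 mM. So were the immediate early, autophagy, ATF4 and hypoxia lists. Not every list was, and the proteasome mean lay at 5.23 to 5.50 on the 0 mM arrays, highest on replicate 3.

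The transcription machinery split, read against 4.83% of all genes lower and 4.54% higher. Of 39 measured genes of RNA polymerase II, its general factors and Mediator, 6 were lower and 5 higher, with a median of 0.21. The lower ones were large subunits and elongation factors. Med1, the Mediator subunit that contacts nuclear receptors, fell from 3.00 to 3.50 at 0 mM to 1.20 to 1.83, by 1.68 (SE 0.177), and Ccnt2, a cyclin of the elongation kinase P-TEFb, from 1.91 to 2.13 to 0.34 to 0.46, by 1.64 (SE 0.157). Ccnt1, the other such cyclin, fell by 1.02, the elongation factor gene Supt6 by 0.78, and Taf4 by 0.57. Polr2a, the catalytic subunit, fell by 1.04 (SE 0.286), from 1.89 to 3.23 to 1.00 to 1.78. The higher ones were Polr2c, Polr2h, Tbp and Med21, between 0.46 and 0.71, and Hexim1. Hexim1, which encodes the protein that holds P-TEFb inactive, rose by 1.25 (SE 0.263) on its brightest probe set, from 2.75 to 4.28 to 4.89 to 5.00, and by 3.03 (SE 0.252) on another. Cdk9, the kinase of P-TEFb, stood at 0.01 (SE 0.158). With the spike level as a term 5 genes of the list were lower and 1 was higher, but these were not all the same genes. Supt6 (adjusted p = 0.241 in limma), Taf4 (adjusted p = 0.114) and Polr2a, at -0.48 (adjusted p = 0.501), were then not called. Neither were Hexim1 (adjusted p = 0.0715), Polr2c, Tbp and Med21. In the fit of the 7 arrays alone Hexim1 (adjusted p = 0.117), Ccnt1 (adjusted p = 0.0894), Supt6, Polr2a, Polr2h and Tbp were not called. The Polr2a call was also lost without replicate 1 or 3 of 0 mM or 2 of 3.5 mM (adjusted p = 0.127) and with array weights (adjusted p = 0.114), the Taf4 call without replicate 1 or 2 of 0 mM or 2 or 3 of 3.5 mM, and the Tbp call without replicate 2 or 4 of 0 mM or 1 of 3.5 mM.

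The genes lost were longer than the genes that rose, a property examined after the values had been seen. The genomic span, from the first to the last annotated base in RefSeq, had a median of 20.3 kb over 18028 genes, 16.6 kb for 824 genes that were higher and 52.1 kb for 873 that were lower. Among genes changed at least 2-fold the medians were 4.1 kb (46 genes) and 60.5 kb (342 genes). Among the largest changes, H2bc18 spans 0.493 kb, Gadd45g 1.8 kb and Hspa1b 2.81 kb, whereas Hipk2 spans 189 kb, Akap13 299 kb and Hivep3 404 kb. There were exceptions, with Sgk1 at 118 kb among the rises and Nrp at 1.17 kb among the falls. In 4 equal groups from the shortest to the longest span, the percent called lower was 1.51, 2.51, 5.46 and 9.9, and the percent called higher 5.15, 5.41, 4.35 and 3.37. The median signal was 0.23, 1.00, 1.36 and 0.77 in these groups, the shortest being dimmest, so the same was done in genes above the median signal. There the percent lower was 2.93, 5.15, 9.19 and 18.7 and the percent higher 8.25, 6.44, 4.7 and 3.28. Signal was not evened out by this, with medians of 2.89, 2.78, 2.71 and 2.44 from the shortest to the longest. The share called higher also differed by signal, as given below. All these genes share arrays, so these shares carry no test.

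**Figure D3:**
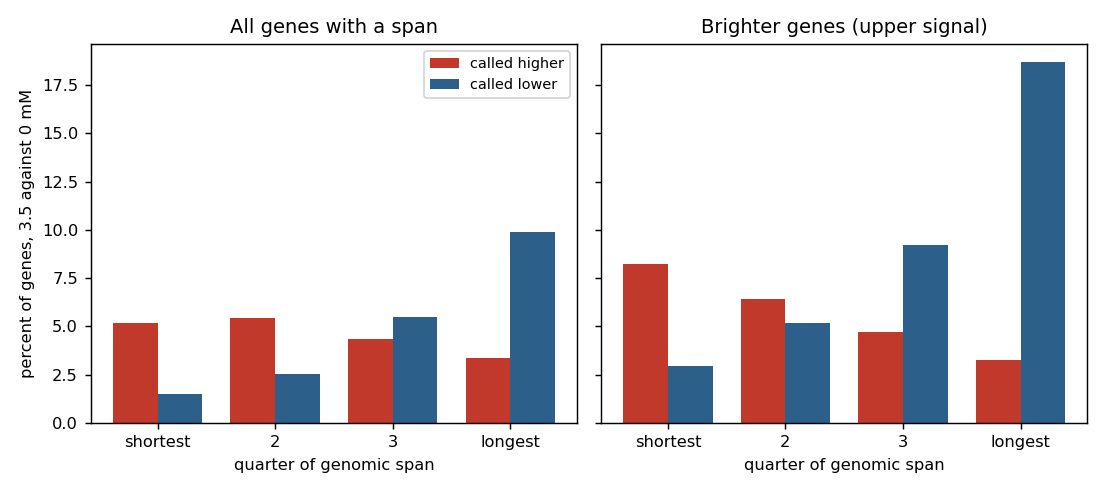
Percent of genes called higher and lower at 3.5 against 0 mM (y axis) in 4 equal groups of genomic span, for all genes with a span (left) and for genes above the median signal (right). The share lower climbs from 1.51% to 9.9% on the left and from 2.93% to 18.7% on the right, while the share higher on the right goes from 8.25% to 3.28%.

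Losses also differed by the source of a probe set's sequence, which was examined after the values had been seen as well. Above the median signal, 3.45% of probe sets designed on RefSeq transcripts were lower, against 12.5% of those designed on expressed sequence tags and 14.1% of those without an accession in the platform table. The percent higher was 6.42, 3.62 and 3.99 in the same order. Probe sets that carry no gene symbol were lower in 6.68% and higher in 2.59% of 9160 cases. In 4 equal groups by mean signal, from dim to bright, the percent lower was 0.266, 2.14, 9.52 and 9.66, and the percent higher 3.07, 3.04, 3.07 and 6.52, so few losses were called among dim probe sets.

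Probe sets of the same gene often disagreed, and the pattern differed between genes. All 3 probe sets of Hspa1b and all 3 of Id2 rose, at 3.84 to 4.11 and at 1.27, 1.64 and 3.18. Of 8 probe sets for Hipk2 4 were lower, at -3.32, -1.85, -1.78 and -0.85, and the others lay between -0.43 and -0.04. Rbm39 has 12, of which 8 fell by 1.41 to 2.67, while a probe set at 3.47 and another at 2.66 at 0 mM stood at -0.17 (SE 0.339) and 0.13 (SE 0.19). In another kind of gene the bright probe sets did not pass the test and a dimmer one fell steeply. Vcp, an ATPase gene, had 0.005 (SE 0.157) on its bright probe set and -2.21 (SE 0.253) on the dim one. For Gspt1, a translation termination factor gene, the values were 0.18 (SE 0.166) on the brightest and -2.45 (SE 0.239) on 1 of 5 others. S100a10 had 0.15 and 0.85 on its bright probe sets and -3.07 (SE 0.472) on the third, and the ribosomal protein gene Rps24 had 0.12 to 0.89 on 4 bright ones and -2.56 (SE 0.277) on a dim one. Behind the 0.85 and the 0.89, replicate 1 of 0 mM was low, at 4.08 and 4.16. The other 0 mM arrays were at 6.22 to 6.79 and at 7.02 to 7.11. These genes were chosen after their values were seen. Of 9010 genes with more than 1 probe set, 7916 were not called on the brightest. Among those, a dimmer probe set was lower by at least 2-fold in 185 genes and higher by at least 2-fold in 49, and over all changes the numbers were 488 and 500. Both directions were called within 51 genes. A gene's value above is therefore that of 1 stretch of its transcripts.

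**Figure D4:**
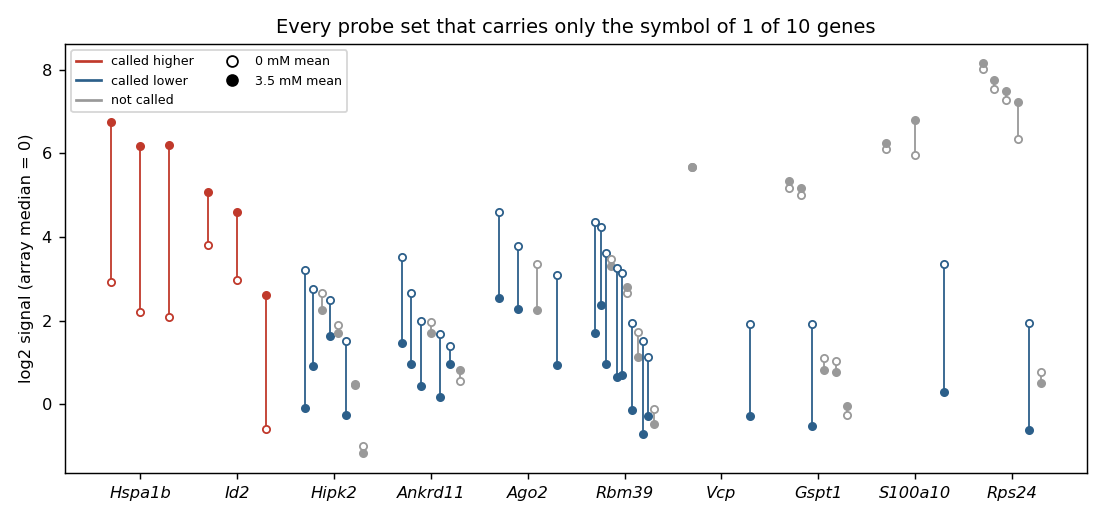
Mean log2 signal (y axis) at 0 mM (open, n = 4) and 3.5 mM (filled, n = 3) of every probe set that carries only the symbol of the named gene, joined by a line coloured by its call. All 3 Hspa1b probe sets rise, 8 of 12 Rbm39 probe sets fall, and Vcp, Gspt1, S100a10 and Rps24 each pair uncalled bright probe sets with 1 that falls by over 2 on the log2 scale.

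Lists of genes known to respond to oxidants were read against 4.54% of all genes higher and 4.83% lower. No gene of the 16 measured for glutathione and cystine supply was called in either direction by limma, and 3 had an unadjusted p under 0.05. Hmox1, which encodes heme oxygenase and is a strong NRF2 target, was at 4.18, 4.24, 3.42 and 4.38 at 0 mM and at 3.56, 3.83 and 4.07 at 3.5 mM, overlapping, with a difference of -0.24 (SE 0.203). Srxn1, the sulfiredoxin gene, stood at -0.25 (SE 0.395), Gclm, the modifier subunit of glutathione synthesis, at -0.30 (SE 0.348), and the cystine transporter gene Slc7a11 at 0.85 (SE 0.487). In the thioredoxin and quinone list 3 of 17 were lower and none higher. Txnrd1, thioredoxin reductase, fell from 4.97 to 5.37 at 0 mM to 4.02 to 4.80, by 0.86 (SE 0.204), and Bach1 and Mafk, which encode partners that bind the same DNA element as NRF2, fell by 1.47 (SE 0.318) and 0.90 (SE 0.203). None of the 3 was called with the spike level as a term. No interferon-stimulated gene of 28 and no gene of 26 in the ATF4 list was called, with 2 and 9 at an unadjusted p under 0.05 and a median of 0.40 in the latter, and Ddit3, a stress factor gene, stood at 1.13 (SE 0.37, adjusted p = 0.0586). Of 31 NF-kB genes only Nfkbia was called, at -0.74 (SE 0.176).

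The neighbouring doses show how far these classes moved between 2.1, 2.8 and 3.5 mM. Both comparisons use the same 3.5 mM arrays as the comparison with 0 mM. Against 2.8 mM 5066 probe sets differed (11.2%), with 1602 genes higher (8.81%) and 969 lower (5.33%), and against 2.1 mM 7675 differed (17%), with 1991 genes higher (10.9%) and 1589 lower (8.73%). The first count was 2123, 2177, 3127 and 2489 without replicates 2 or 3 of 2.8 mM or 2 or 3 of 3.5 mM, and the other was 5016 and 4990 without replicate 1 of 2.1 mM or 3 of 3.5 mM. Hmox1 had means of 7.57 (SD 0.108, n = 3) at 2.1 mM, 6.95 (SD 0.455) at 2.8 mM and 3.82 (SD 0.259) at 3.5 mM. Its difference from 2.8 mM was -3.13 (adjusted p = 1.12e-07 in limma). Srxn1 was lower than at 2.8 mM by 3.70 and Gclm by 2.77. The largest falls from 2.8 mM included Procr, a receptor gene, and the inflammatory genes Il1rn and Ptgs2, at -4.40, -3.68 and -3.20, and against 0 mM the same 3 stood at -0.49, -0.29 and 0.26, none called. Mitosis genes moved the other way. Of 32 measured, 23 were higher than at 2.8 mM (median 1.40) and 29 higher than at 2.1 mM (median 1.89), and none was called against 0 mM in limma (median 0.17), where 3 had an unadjusted p under 0.05. Plk1, a mitotic kinase gene, averaged 1.43 (SD 0.0733) at 2.1 mM, 1.58 (SD 0.797) at 2.8 mM and 3.55 (SD 0.303) at 3.5 mM, next to 3.78 (SD 0.414, n = 4) at 0 mM.

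The genes with the largest changes against 0 mM had different courses. H3c7 stayed between means of -0.41 and 0.62 at every dose up to 2.8 mM and reached 4.28 (SD 0.481) at 3.5 mM, a step of 3.65 from 2.8 mM (adjusted p = 1.22e-07 in limma). H3f3b and 3110040M04Rik rose by 3.39 and 2.95 over the same step. Hspa1b was already at 6.54 (SD 0.724) at 2.8 mM and differed by 0.22 from there (adjusted p = 0.898). Gadd45g had 1.86 (SD 1.79) at 2.8 mM and 4.35 (SD 0.479) at 3.5 mM, and Hexim1 differed over that step by 0.10 on its brightest probe set and by 2.43 (adjusted p = 1.76e-05) on the other. Hipk2 lay between 3.22 and 3.62 up to 2.1 mM, at 2.04 (SD 0.402) at 2.8 mM and at -0.10 (SD 0.592) at 3.5 mM. Hivep3 differed by -0.25 from 2.8 mM (adjusted p = 0.792) and Plec by -0.47 (adjusted p = 0.244), so their means at 2.8 mM were already close to those at 3.5 mM.

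**Figure D5:**
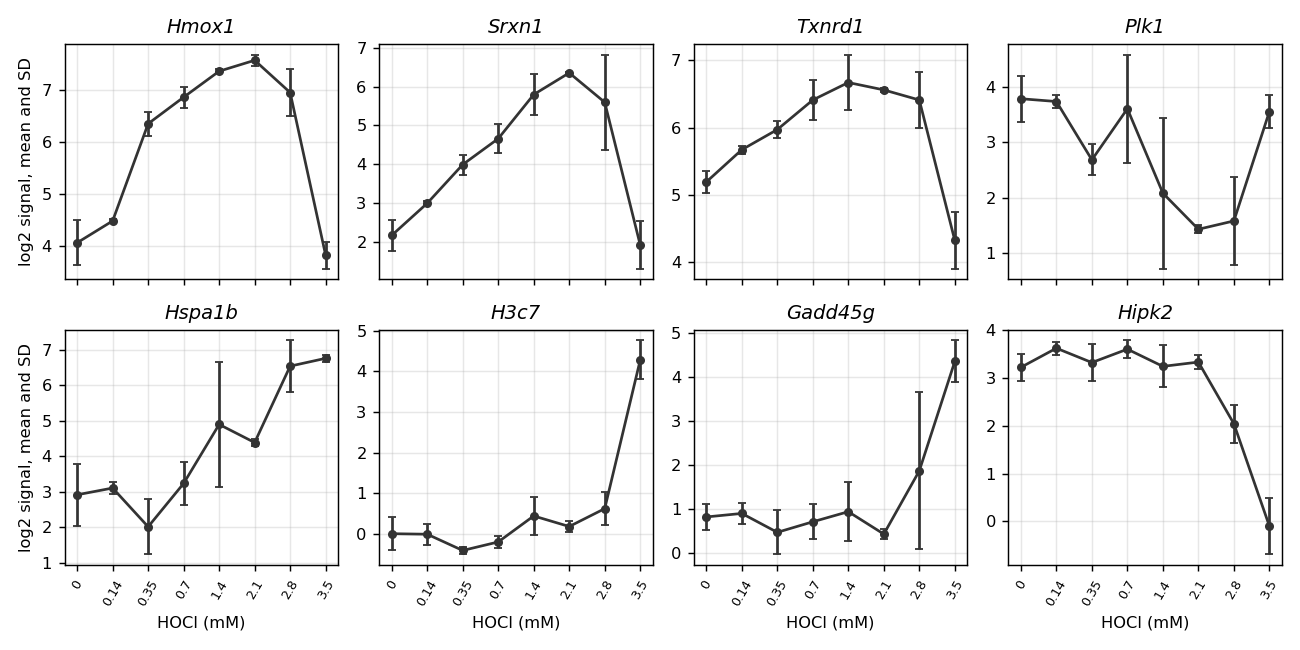
Mean log2 signal and SD (y axis) of 8 genes over the 8 doses (x axis, evenly spaced, n = 4 arrays at 0 mM and n = 3 at each other dose). Hmox1 and Srxn1 are high at 2.1 mM and near their 0 mM level at 3.5 mM, H3c7 is high at 3.5 mM, and Hipk2 is at -0.10 there.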

How the data were processed

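RNA of RAW 264.7 cells was hybridized to 25 Affymetrix arrays, 4 at 0 mM HOCl and 3 at each of 7 doses above it. Per the submitters' processing notes the arrays were summarised with RMA, and per the labels intensities were extracted with Array Assist, with settings not stated there. As deposited, values are log2 signals and every array has its median at 0; base 2 was inferred from their range. Within-dose correlations over probe sets were 0.953 to 0.996 at 0 mM and 0.98 to 0.991 at 3.5 mM. Between arrays of 0 and 3.5 mM they were 0.946 to 0.978, which overlaps the range within 0 mM. The number of arrays limits the precision.

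With limma 3.58.1 (R 4.3.3), 45037 probe sets were fitted without a filter, using 25 arrays and 1 mean for each dose. Moderated tests were two-sided, with Benjamini-Hochberg adjustment over each comparison, called at an adjusted p under 0.05. Genes were represented by the brightest of their probe sets with 1 symbol (34945 probe sets, 18193 genes), named through gene IDs in RefSeq for 34741 of them. Another 932 probe sets carry several symbols and 9160 none. The members and the 51 gene lists were chosen with earlier results of these data known, and lists are described by counts and medians, with no test. Named genes are the 15 largest rises and falls called with no overlap, 5 each way from 2.8 mM, for each list, its 4 members of lowest p at most, and a set of stress, inflammation, cell cycle and marker genes. The others (H1f4, H2aw, H2bc22, Cox7c, Hexim1, Id2, Polr2a, Ccnt1, Supt6, Taf4, Tbp, Med21, Cdk9, Vcp, Gspt1, Rps24, S100a10, Hspa8, H1f2, H2az1, H3f3a and Macroh2a1) were picked after their values were seen. On simulated data for 3.5 against 0 mM over 45037 probe sets, the test found 40.3% of changes of 1.5-fold, 74.6% at 2-fold and 97% at 4-fold, and 9 of its calls (6%) were false. Alternatives changed the normalization, centring, signal filter, variance prior, arrays fitted, array weights, replicate block, spike term, probe set and threshold.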

Additional observations from a re-analysis of the deposited data

Results flagged for a closer look

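On 1 of the 4 arrays of 0 mM, 5 of 53 genes checked had a value far from the other 3. H3c4 was highest on replicate 1, at 1.44, and Snhg5 lowest on it, at 0.69. Hivep3 was lowest on replicate 4, at 2.50, Cdk6 lowest on replicate 3, at 4.04, and Plk1 highest on replicate 3, at 4.40. Chance flags about 1 in 20 such groups. The 5' probe sets of the poly-A control transcripts, which no comparison uses, averaged 2.07 at 3.5 mM and 0.99 at 0 mM.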

How the results depend on the processing

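Main counts at 3.5 against 0 mM are 4199 probe sets called, 1768 higher, 2431 lower, 1153 changed at least 2-fold and 181 list members called, with 5066 called against 2.8 mM and 7675 against 2.1 mM. In that order and as far as they moved, fitting the compared groups alone gave 1819, 432, 1387, 76 list members and 2043 against 2.8 mM. Array weights, whose estimation stopped short of its convergence tolerance, gave 7409, 3443, 3966, 313 list members, 10739 and 13320. The spike level as a term gave 2624, 545 higher and 60 list members. Testing 1 probe set per gene gave 1636, 776, 860, 386, 2762 and 3728, from fewer tests. An adjusted p under 0.01 gave 1757, 433, 1324 and 77 list members. Leaving out 1 array at a time gave 2817 to 4535 called, 963 to 1851 higher, 1607 to 2684 lower, 926 to 1422 changed 2-fold, 117 to 208 list members, 2123 to 6637 against 2.8 mM and 4990 to 8045 against 2.1 mM. Quantile normalization, centring on array means, filters on dim probe sets and the trended prior kept these counts within 1.5 times. Of 130 named calls 76 held without each array in turn, 79 were lost with the spike term and 60 in the fit of the compared groups. Apart from what a smaller number of tests or arrays does, the cause was not tested. With the probe set of largest variance, differences turned to 0.06 for Xiap, -0.10 for Casp9, 0.35 for Nfkbia, 1.40 for Hmgcs1, -0.42 for Fdps, -0.67 for Bub3, -0.09 for Pes1, -0.13 for Rpl7l1, -2.21 for Vcp, -2.45 for Gspt1, -2.56 for Rps24 and -3.07 for S100a10.

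Replicate numbers did not pair the arrays. Residuals of the 3 same-numbered pairs of 0 and 3.5 mM correlated at -0.396 to 0.0814, and of 84 pairs over all doses 19 were above 0.1. With the number as a replicate block 3096 probe sets were called, 1207 higher and 1889 lower, with 1092 changed at least 2-fold, 137 list members, 4587 against 2.8 mM and 7210 against 2.1 mM, and 28 of the 130 named calls were lost.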

Other observations

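Smaller groups held a few calls each at 3.5 against 0 mM, where 4.54% of all genes were higher and 4.83% lower. Of 22 measured genes of the endoplasmic reticulum and its unfolded protein response 2 were lower and none higher, Syvn1 at -1.67 (SE 0.236) and Sel1l at -0.76 (SE 0.149), which encode the ubiquitin ligase and its partner that clear misfolded proteins there. Both calls remained with any 1 of the 7 arrays left out and with the spike level as a term. On the probe set of largest variance Sel1l stood at -0.13 (adjusted p = 0.732 in limma). Of 36 measured splicing factor genes 3 were lower and none higher, Srsf4, Ddx17 and Srsf11 at -0.74 (SE 0.16), -0.71 (SE 0.17) and -0.47 (SE 0.128). That count was 1 without replicate 3 of 3.5 mM or with the spike level as a term, and 6 without replicate 1 of 3.5 mM. The zinc transporter genes Slc30a1 and Slc39a14 were lower by -1.06 (SE 0.267) and -0.58 (SE 0.163), the only calls among 13 measured metallothionein and zinc genes, and neither was called with the spike level as a term or without replicate 2 of 3.5 mM.

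Other groups moved both ways, and those of DNA replication and cholesterol synthesis held calls near or below the shares of all genes. Autophagy had 3 of 26 higher, Atg10, Atg4b and Atg5 at 0.68, 0.43 and 0.43, and Ulk1, the kinase gene that starts the process, lower at -0.80. None of the 4 was called without replicate 1 of 3.5 mM or with the spike level as a term. In DNA replication, with 37 measured, Rfc3, a clamp loader subunit gene, was higher at 1.29 (SE 0.346) and Tyms, the thymidylate synthase gene, lower at -0.89 (SE 0.172). Without replicate 1 of 0 mM or of 3.5 mM, or with the spike level as a term, no member of that list was higher. In cholesterol synthesis, with 20 measured, Fdps was higher at 0.53 (SE 0.131) and Hmgcs1 lower at -0.73 (SE 0.165), and the Fdps call was lost without replicate 3 of 3.5 mM and with the spike level as a term.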
